A study of Homo sapiens with 12 samples.

Results

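The genes described here are 10 listed symbols that encode the 2 subunits of ribonucleotide reductase, the replication licensing machinery and the sliding clamp of the replication fork: RRM1, RRM2, CDT1, MCM2, MCM3, MCM4, MCM5, MCM6, MCM7 and PCNA. They were listed by symbol and matched by name to the 36459 gene symbols of the deposited gene table. All 10 were found, and all 10 were among the 14209 genes that passed the filter on low counts.

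The libraries came from HEK293, an established line of human embryonic kidney cells transformed with adenovirus DNA. There were 4 groups of 3 libraries each, 12 in all. One group received vehicle, one oleic acid (a monounsaturated fatty acid), one ferric ammonium citrate (FAC, an iron salt given to induce ferroptosis, an iron-dependent form of cell death), and one oleic acid together with FAC. The study asked how oleic acid alters the response of the cells to FAC. No group received an iron-free ammonium citrate salt, so iron and its carrier cannot be told apart here. Neither dose nor duration appears in the labels. They number the replicates without saying whether these were separate cultures, so each p-value rests on the variation among libraries, which may be technical. Replicate 3 of oleic acid and replicate 3 of oleic acid + FAC stood apart from the other 10 libraries, and results are also given without them.

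Ribonucleotide reductase converts ribonucleotides to the deoxyribonucleotides used in DNA synthesis. Its large subunit RRM1 holds the catalytic site, and its small subunit RRM2 carries an iron centre and a tyrosyl radical, which makes the enzyme one of the iron-dependent steps of cell proliferation. Licensing is the loading of the ring-shaped MCM2 to MCM7 helicase onto replication origins before S phase, for which the origin recognition complex, CDC6 and CDT1 are needed. In S phase CDT1 is bound by geminin, and it is also destroyed by a ubiquitin ligase that recognises it on PCNA, the clamp that holds DNA polymerases on the template. The mRNAs of these genes are well-known targets of the E2F transcription factors and are most abundant around the transition from G1 to S phase. A level in a dividing bulk culture therefore carries both the share of cells in each phase and the mRNA per cell, and these cannot be told apart.

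Of the 10 genes, 1 rose with FAC and none fell, when 8.76% of all tested genes were called in the same comparison and 3.27% were called higher. CDT1 mRNA was 1.30-fold higher over the 6 libraries with FAC than over the 6 without it, a call that was lost in 7 of 12 fits that left out 1 library. The mRNAs of RRM1, RRM2, PCNA and the 6 MCM subunits did not pass the test for FAC, for oleic acid or for the interaction of both treatments. With oleic acid no member passed the test in any comparison.

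The stretches before the transcription start are shown for CDT1, the gene that rose, and for RRM2, the iron-binding subunit of ribonucleotide reductase. They are also shown for MCM6 and MCM7, MCM subunits with an E2F-type motif there. Each is the RefSeq sequence of the 150 bases before the start on build GRCh38.p14, read 5′ to 3′ on the strand of the gene. The starts are those of RefSeq, and for CDT1, MCM7 and RRM2 the bases shown lie inside the gene span that GENCODE gives. In CDT1, MCM6 and MCM7 the capitals mark 8-base E2F-type motifs on either strand, and in RRM2 they mark CCAAT.
CDT1, chr16:88803639-88803788, plus strand: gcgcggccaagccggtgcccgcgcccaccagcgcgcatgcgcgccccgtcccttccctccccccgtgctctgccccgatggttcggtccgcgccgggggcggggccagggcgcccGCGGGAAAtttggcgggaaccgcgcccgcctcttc
MCM6, chr2:135876444-135876593, minus strand: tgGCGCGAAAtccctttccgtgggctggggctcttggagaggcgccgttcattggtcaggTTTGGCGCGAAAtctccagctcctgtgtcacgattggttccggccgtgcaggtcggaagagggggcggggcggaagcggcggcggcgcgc
MCM7, chr7:100101398-100101547, minus strand: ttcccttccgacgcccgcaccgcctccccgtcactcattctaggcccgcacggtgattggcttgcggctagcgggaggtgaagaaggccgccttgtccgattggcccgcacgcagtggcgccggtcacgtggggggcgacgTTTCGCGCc
RRM2, chr2:10122589-10122738, plus strand: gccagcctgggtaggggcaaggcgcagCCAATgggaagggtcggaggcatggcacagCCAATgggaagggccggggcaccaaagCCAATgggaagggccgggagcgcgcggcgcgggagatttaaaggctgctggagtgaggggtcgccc

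The motifs searched on both strands were TTTCCCGC, TTTCGCGC, TTTGCCGC and TTTGGCGC as E2F-type and CCAAT as the CCAAT box, in windows of 250 bases before a start. A window was at hand for 8 of the 10 genes, and MCM4 and MCM5 were not searched. These 8 genes have 12 windows, since some have more than 1 start. An E2F-type motif lay in 5 of the 12 windows, 1 each for CDT1, MCM3, MCM6, MCM7 and PCNA, while 2.79% of all 35116 windows held one. CCAAT lay in 10 of the 12 windows, from 6 of the 8 genes, against 32.0% of all windows. The MCM2 window held neither kind of motif. In MCM6 the longer capital run is TTTGGCGC overlapped by TTTCGCGC on the other strand. These matches describe the letters in the windows only.

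Library totals ran from 14098216 to 18717397 counts. CPM are counts per library scaled to a common effective size. On that scale 3 counts, about the 95% upper limit for a count of 0, came to 0.158 to 0.224 CPM. That limit covers counting error only. Replicate 3 of the oleic acid group and replicate 3 of the oleic acid + FAC group stood apart. Across genes, the deviation of a library from its group mean was set against transcript length (log2). The correlation was r = -0.67 and -0.51 in the libraries that stood apart, against -0.40 to 0.55 in the other 10. Each group mean includes the library itself, and the 0.55, of the first oleic acid library, was larger in size than the -0.51. The SD of the deviations was 0.329 and 0.326 in the libraries that stood apart, against 0.163 to 0.247 in the other 10. Mitochondrially encoded mRNAs made up 12.1% of the counts in the third oleic acid + FAC library against 3.33 to 7.50% elsewhere. TFRC, the transferrin receptor, whose mRNA is destabilised when iron is plentiful, had 122 ± 10.6 CPM in vehicle and 19.5 ± 2.62 CPM in FAC (SD, n = 3), and it fell by 2.64 on the log2 scale (edgeR adjusted p = 0.000232). Of 12 markers of HEK293 and embryonic kidney, 11 passed the filter and PAX8 did not, with 0 counts in 7 libraries. LHX1, a marker on that list, rose by 0.52 on the log2 scale for FAC averaged over oleic acid (edgeR adjusted p = 0.0038), and 8 of the 11 tested had a positive value there, with a median of 0.17. For oleic acid with FAC against vehicle 9 of the 11 were positive, with a median of 0.53 on the log2 scale. The summed level of the 12 was 870 to 1224 CPM in vehicle and 906 to 1388 in oleic acid. It was 931 to 1358 in FAC and 1267 to 1925 in oleic acid with FAC, the last above every vehicle library. Most of this sum was VIM, with a vehicle mean of 695 CPM and 583 to 1427 CPM over the 12 libraries. The part of these marker differences in the CDT1 result was not tested. Of 13 markers of blood, vessel, connective tissue, liver and mature kidney, 3 passed the filter. These were COL1A1, CD68 and HBA1, with vehicle means of 15.6, 3.50 and 0.58 CPM. HBB and UMOD were at 0 in all 12 libraries. The summed level of the 13 was 18.3 to 22.5 CPM in vehicle and 17.7 to 23.8 CPM in FAC. In vehicle most of it was COL1A1.

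The 10 mRNAs were abundant in vehicle-treated cells. To compare genes, the CPM were divided by the mean transcript length in kilobases. On this length-scaled measure MCM7 had the highest level, at 203 ± 6.40 CPM per kilobase (SD, n = 3). PCNA followed at 159 ± 23.7, MCM3 at 113 ± 5.48 and RRM1 at 100.2 ± 4.19 CPM per kilobase. MCM4 had 96.3 ± 0.216, MCM2 87.5 ± 3.94, MCM5 73.8 ± 10.3 and MCM6 67.5 ± 6.45 CPM per kilobase. RRM2 had 58.7 ± 3.26 CPM per kilobase, and CDT1 had the lowest level of the 10, at 27.3 ± 3.41. The vehicle libraries of neighbours in this order overlapped for RRM1 and MCM4, for MCM2 and MCM5, and for MCM5 and MCM6. The other 6 neighbouring pairs did not overlap, and RRM2 had 2.16-fold the mean level of CDT1, the next in the order. Although the 6 MCM proteins act in one ring, the length-scaled level of the highest MCM gene, MCM7, was 3.01-fold that of the lowest, MCM6. These levels count all transcripts of a gene, coding or not. Outside the 2 libraries that stood apart, MCM7-210, annotated with a retained intron, took 45.9 to 55.7% of the MCM7 counts. The coding transcript MCM7-201 took 43.8 to 53.5% there. The place of MCM7 in the order and the 3.01-fold ratio were not tested on coding transcripts alone. The median tested gene had 7.98 CPM per kilobase, which put the members between the percentiles 79.6 and 97.7.

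**Figure D1:**
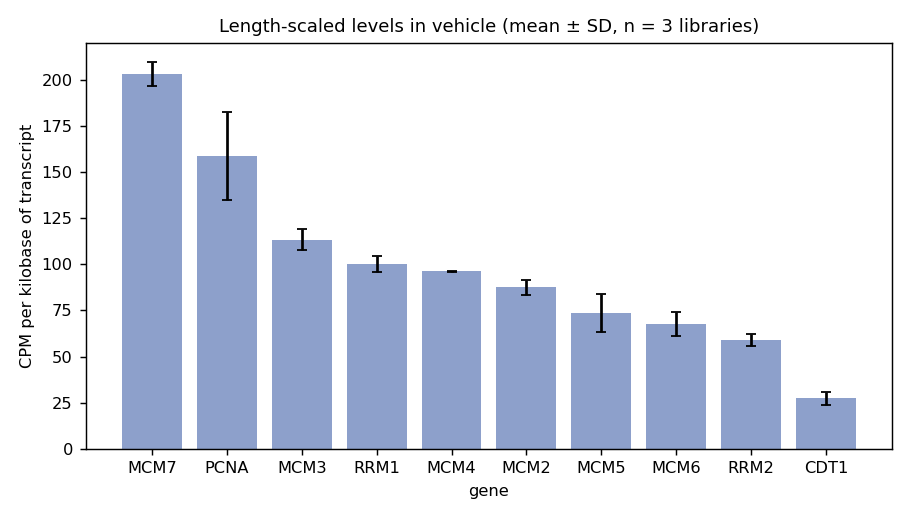
Length-scaled level of each gene in vehicle-treated HEK293 cells, in CPM per kilobase of mean transcript length, with all transcripts of a gene counted. Bars are means and error lines are SDs over 3 libraries. MCM7 stands highest at 203 and CDT1 lowest at 27.3 CPM per kilobase.

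CDT1 loads the MCM ring onto origins. In vehicle it had 99.8, 82.0 and 80.0 CPM in libraries 1, 2 and 3, and in oleic acid 94.9, 83.5 and 105.0 CPM. In FAC it had 124.9, 105.5 and 117.2 CPM, and in oleic acid with FAC 111.8, 136.9 and 111.2 CPM. The lowest library with FAC, the second FAC library, stood just above the highest library without it, the third oleic acid library, so the 6 and 6 libraries did not overlap. The mean was 90.8 ± 10.5 CPM (SD, n = 6) without FAC and 118 ± 11.4 CPM (SD, n = 6) with FAC. The log2 fold change averaged over both oleic acid states was 0.38 (SE 0.094, 95% interval of the fold 1.13 to 1.50, edgeR adjusted p = 0.0255).

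With 1 of 10 members called against 8.76% of all genes, the share of members called was close to that of genes in general. Among all genes, 6.84% had libraries with FAC that did not overlap those without it, and in 2.8% they were all higher. CDT1 ranked 841 of 14209 genes by p in this comparison, and 16.7% of the genes had a fold change at least as large in either direction. The call did not hold in every fit that left out 1 library. Over all genes such fits called from 738 to 1810, against 1244 with all 12 libraries. Leaving out 1 library at a time, CDT1 stayed under the threshold in 5 of 12 fits, with log2 fold changes between 0.32 and 0.43 and adjusted p-values between 0.0137 and 0.0770. It was lost without vehicle 2 (0.0753), vehicle 3 (0.0770), oleic acid 1 (0.0574), oleic acid 2 (0.0677), FAC 1 (0.0713), FAC 3 (0.0624) or oleic acid + FAC 2 (0.0710).

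The difference in CDT1 was also taken group by group. FAC against vehicle gave a log2 fold change of 0.41 for CDT1 (SE 0.13, unadjusted p = 0.00895, edgeR adjusted p = 0.189). Oleic acid with FAC against oleic acid gave 0.35 (SE 0.13, unadjusted p = 0.0223, edgeR adjusted p = 0.221). Against vehicle, oleic acid with FAC gave 0.46 (SE 0.13, unadjusted p = 0.00433, edgeR adjusted p = 0.0810). None of these 3 contrasts, which share groups, passed the adjusted threshold in this fit, although the libraries did not overlap in any of them. For oleic acid with FAC against vehicle CDT1 did pass with the length trend removed (edgeR adjusted p = 0.0261) and without the 2 libraries that stood apart (edgeR adjusted p = 0.0361). CDT1 was the only member without overlap in each. Without overlap were 22.4% of all genes for FAC against vehicle, 18.1% for oleic acid with FAC against oleic acid and 28.2% for oleic acid with FAC against vehicle. The interaction was -0.06 on the log2 scale for CDT1 (95% interval -0.47 to 0.34, edgeR adjusted p = 1), so a difference of the FAC effect with oleic acid was not detectable within that interval. Oleic acid against vehicle gave 0.11 for CDT1 (edgeR adjusted p = 1.00), and averaged over FAC it gave 0.08 (fold interval 0.92 to 1.22, adjusted p = 0.749).

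**Figure D2:**
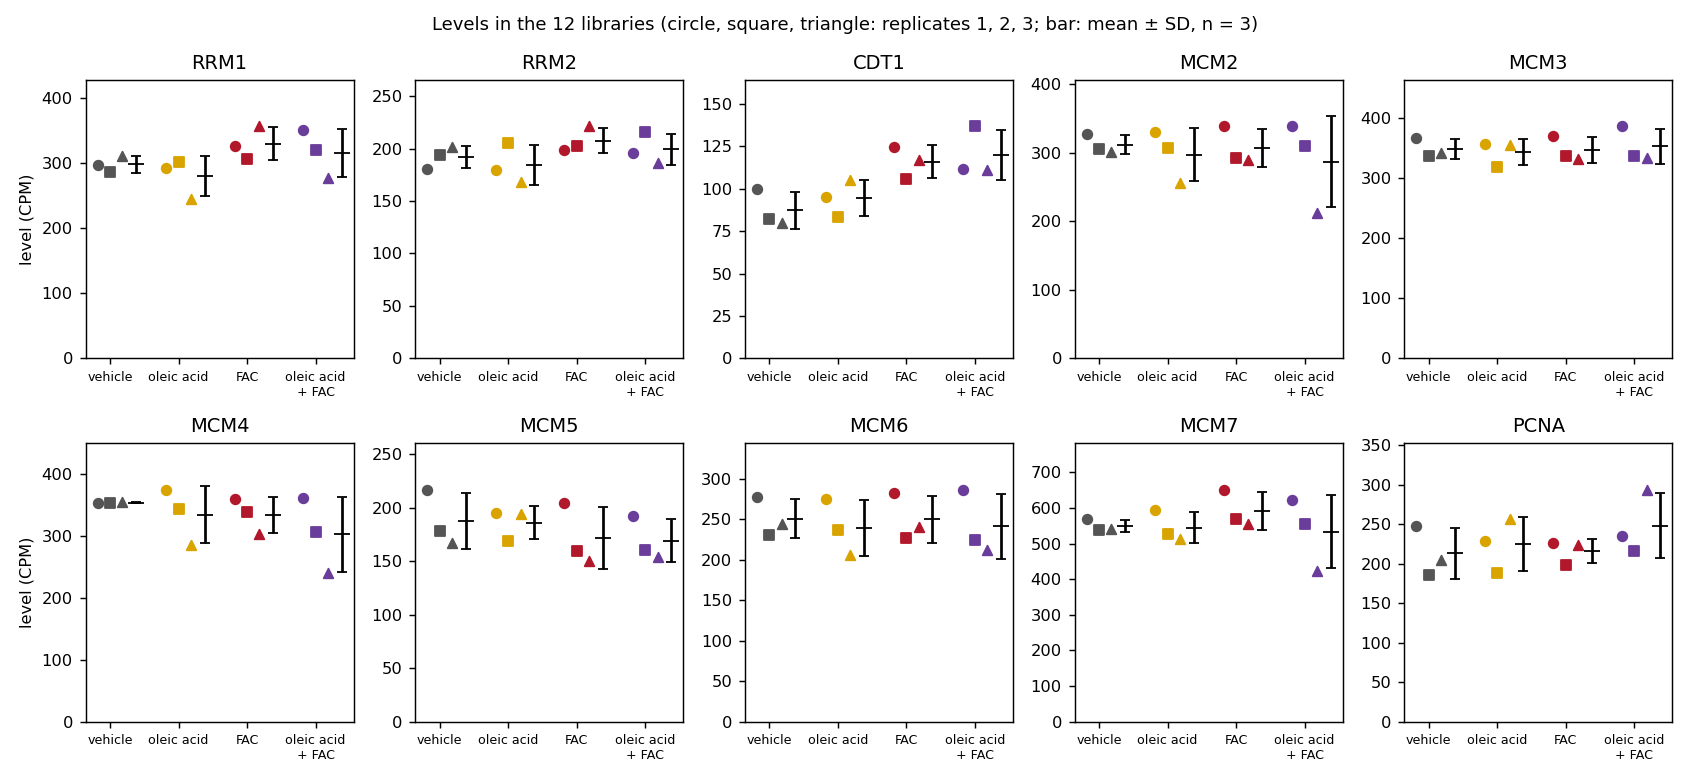
Level of each of the 10 genes in every library, in CPM, by treatment group. Circles, squares and triangles are replicates 1, 2 and 3, and the bars beside them are means ± SD of 3 libraries. CDT1 is the only gene in which the 6 libraries with FAC, from 105.5 to 136.9 CPM, all lie above the 6 without it, from 80.0 to 105.0 CPM.

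RRM1, the catalytic subunit of ribonucleotide reductase, had 296.3, 286.3 and 311.0 CPM in vehicle and 292.6, 301.4 and 244.3 CPM in oleic acid. It had 326.6, 306.1 and 356.7 CPM in FAC and 351.1, 319.5 and 276.7 CPM in oleic acid with FAC. The groups overlapped, because the second FAC library lay below the third vehicle library and the third library was the lowest of both oleic acid groups. The log2 fold change for FAC averaged over oleic acid was 0.16 (SE 0.087, 95% interval of the fold 0.982 to 1.27, edgeR adjusted p = 0.283).

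RRM2, the small subunit whose protein needs iron, had 180.6, 194.2 and 201.6 CPM in vehicle and 179.4, 205.5 and 168.1 CPM in oleic acid. In FAC it had 198.9, 202.5 and 221.3 CPM, and in oleic acid with FAC 196.2, 215.4 and 186.4 CPM. Its 4 groups overlapped, with the highest value in the third FAC library. The log2 fold change for FAC averaged over oleic acid was 0.11 (SE 0.078, 95% interval of the fold 0.962 to 1.21, edgeR adjusted p = 0.410). In the annotation RRM2 shares 8681 bases on the same strand with the protein-coding gene AC007240.1, and 85.5% of its gene-level counts lay on transcripts matched to RRM2, so its counts are less certain than those of the other members.

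The MCM subunits form the helicase that CDT1 loads. MCM7, the most abundant, had 568.7, 537.2 and 540.5 CPM in vehicle, 594.4, 525.7 and 512.8 in oleic acid, 651.5, 569.5 and 553.5 in FAC, and 623.0, 553.9 and 421.8 in oleic acid with FAC. The third library of the combined treatment was the lowest of the 12. MCM2 had 327.8, 306.0 and 301.5 CPM in vehicle, 329.7, 307.2 and 255.2 in oleic acid, 338.6, 292.6 and 289.9 in FAC, and 338.7, 310.4 and 212.0 in oleic acid with FAC. MCM4 had 353.3, 353.7 and 354.8 CPM in vehicle, 374.9, 343.5 and 285.0 in oleic acid, 360.4, 338.5 and 302.8 in FAC, and 362.0, 305.7 and 240.6 in oleic acid with FAC. In all 3 genes the first library was the highest of each treated group, and the third libraries of both oleic acid groups were the lowest of their groups.

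MCM5 had 217.0, 178.0 and 167.0 CPM in vehicle, 195.2, 168.6 and 194.3 in oleic acid, 204.6, 159.9 and 150.5 in FAC, and 192.2, 160.9 and 154.3 in oleic acid with FAC. It had the lowest fold change of the 10 for FAC averaged over oleic acid, a log2 value of -0.13 (SE 0.10, 95% interval of the fold 0.781 to 1.07, edgeR adjusted p = 0.481). MCM6 had 277.5, 231.0 and 244.0 CPM in vehicle, 274.8, 236.7 and 206.2 in oleic acid, 282.2, 227.6 and 240.1 in FAC, and 286.9, 225.1 and 212.1 in oleic acid with FAC. MCM3 ranged from 317.8 to 386.6 CPM over the 12 libraries. The groups overlapped in every comparison for each of the 9 members other than CDT1, and for oleic acid against vehicle, oleic acid with FAC against FAC and oleic acid averaged over FAC also for CDT1. In these 3 comparisons 3.6%, 10.5% and 0.0845% of all genes did not overlap. For FAC averaged over oleic acid the log2 fold changes were -0.04 for MCM2, 0.02 for MCM3, -0.11 for MCM4, 0.00 for MCM6 and 0.04 for MCM7.

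PCNA, the clamp on which CDT1 is marked for destruction, had 248.4, 186.3 and 205.0 CPM in vehicle and 229.6, 188.9 and 256.8 CPM in oleic acid. In FAC it had 226.7, 198.6 and 223.3 CPM, and in oleic acid with FAC 235.0, 216.0 and 294.2 CPM. The second library was the lowest of each group, and the third library was the highest in both oleic acid groups. PCNA had the largest positive value of the 10 for oleic acid averaged over FAC, a log2 fold change of 0.14 (SE 0.11, 95% interval of the fold 0.935 to 1.30, edgeR adjusted p = 0.691).

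For the 9 members other than CDT1, the 95% intervals of the fold for FAC averaged over oleic acid ran from 0.781 (MCM5) to 1.27 (RRM1), with edgeR adjusted p-values from 0.283 to 0.989. For oleic acid averaged over FAC they ran from 0.790 (MCM4) to 1.30 (PCNA), with adjusted p-values from 0.691 to 0.994. Over all 10 members the median log2 fold change for FAC averaged over oleic acid was 0.03, with 7 values above 0 and 3 below, and the median of all tested genes was 0.00. For oleic acid averaged over FAC the median of the members was -0.06, with 3 values above 0 and 7 below, and that of all genes was 0.00.

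**Figure D3:**
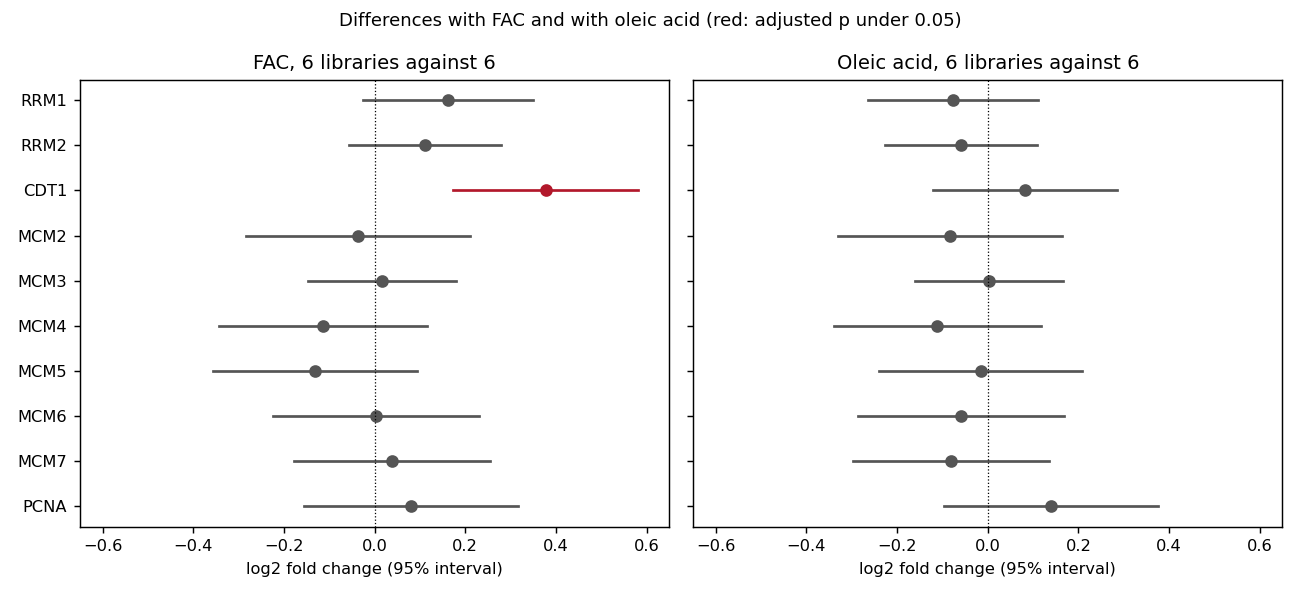
Log2 fold change of each gene with its 95% interval from edgeR, for FAC (left, 6 libraries with against 6 without) and for oleic acid (right, 6 against 6). Only the FAC interval of CDT1 excludes 0 and passes the adjusted threshold of 0.05, at a log2 fold change of 0.38.

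Counts of members called were 0 of 10 in the other 7 comparisons by edgeR. The background was 1.19% of genes called for FAC against vehicle, 2.21% for oleic acid with FAC against oleic acid and 3.07% for oleic acid with FAC against vehicle, and 1 member, CDT1, had an unadjusted p under 0.05 in each. For oleic acid against vehicle, oleic acid with FAC against FAC, the interaction and oleic acid averaged over FAC, 0% of all genes were called and no member had an unadjusted p under 0.05, while 118, 576, 116 and 617 genes did. DESeq2 and limma-voom called 0 members in these 4 comparisons as well. For oleic acid with FAC against vehicle DESeq2 called 1 member, CDT1, with a log2 fold change of 0.47 (DESeq2 adjusted p = 0.0165), and over the alternatives of that contrast the adjusted p ran from 0.0165 to 0.298.

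The mean of these genes inside the groups varied with the replicate number. In each of the 4 groups the first library had the highest mean level of the 10 members, between 0.09 and 0.14 above its group mean on the log2 scale. The second libraries lay between -0.07 and 0.02 and the third between -0.15 and -0.03. MCM6 was above its group mean in every first library, by 0.15 to 0.26 on the log2 scale, and MCM5 by 0.07 to 0.27. RRM2 was below its group mean in every first library, with deviations of -0.09 to -0.02. CDT1, PCNA, RRM1 and MCM4 lay on both sides of their group means in the first libraries. Their deviations were -0.09 to 0.20, -0.07 to 0.23, -0.01 to 0.16 and -0.003 to 0.28. The 15 mitotic genes of a G2/M list went the other way from the mean of the members. Their means ran from -0.23 to -0.15 in the first libraries and from 0.13 to 0.17 in the second. For genes of deoxynucleotide supply the first libraries ran from -0.03 to 0.12, and for origin recognition and loading from -0.02 to 0.07. For origin firing they ran from -0.01 to 0.07, for the replication fork from -0.01 to 0.04, and for E2F and RB genes from 0.04 to 0.15. The labels do not say what the replicate numbers stand for, and the main fit had no term for them. Their part in this spread was not tested. A fit with a replicate block is among the alternatives given below.

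**Figure D4:**
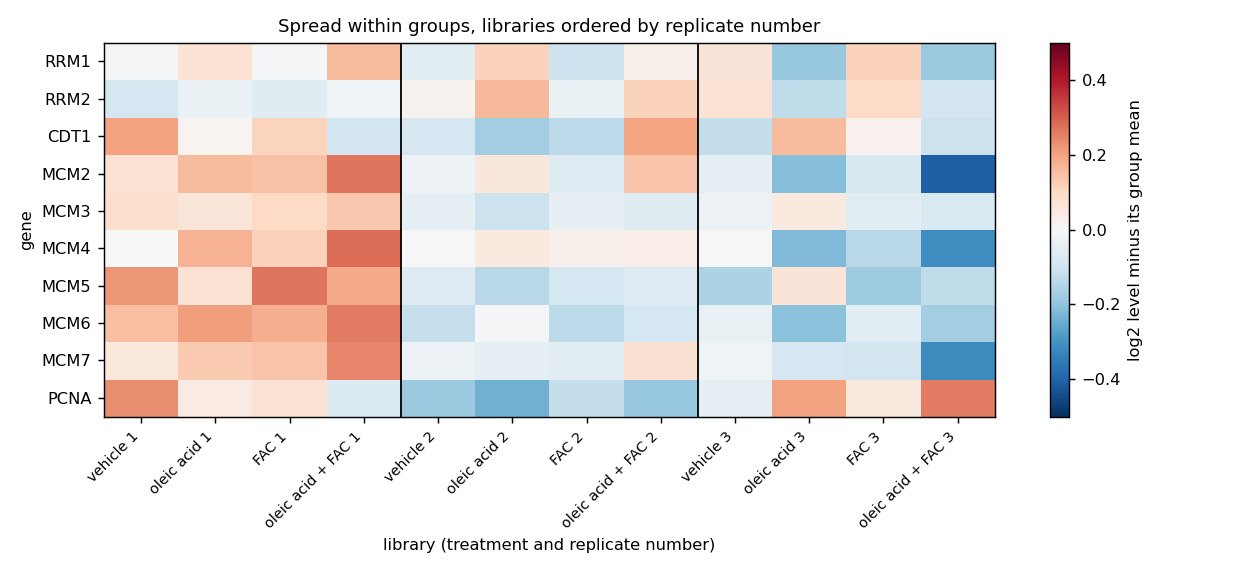
Log2 level of each gene minus its mean in the same treatment group, with the 12 libraries ordered by replicate number (black lines separate the replicate numbers). Red is above and blue below the group mean. MCM6 is red in all 4 first libraries, at 0.15 to 0.26, and MCM2 is bluest in the third oleic acid + FAC library.

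In replicate 3 of oleic acid and of oleic acid + FAC several members lay far from the other 2 of their group. In the third oleic acid + FAC library MCM2 differed from the mean of the other 2 libraries by -0.61 on the log2 scale, MCM7 by -0.48 and MCM4 by -0.47, while PCNA, the member with the shortest mean transcript at 1344 bases, was higher by 0.38. In the third oleic acid library MCM4 differed by -0.33, MCM2 by -0.32 and MCM6 by -0.31, and PCNA by 0.30. CDT1 differed by 0.24 and -0.16, in opposite directions. Without both libraries, the log2 fold change of CDT1 for FAC averaged over oleic acid was 0.45 (edgeR adjusted p = 0.0057), and no other member was called.

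The same 2 libraries differed in how the estimated counts were divided between transcripts. RRM1-201, the full coding transcript of RRM1, took 64.6% of the RRM1 counts in the third oleic acid library and 45.5% in the third oleic acid + FAC library, against 93.0 to 97.3% in the other 10. RRM1-213, annotated as a target of nonsense-mediated decay and lacking the first 854 bases of RRM1-201, took 27.2% and 46.3% there and at most 1.76% elsewhere. MCM7-201, the coding transcript, took 31.2% and 24.0% of the MCM7 counts there and 43.8 to 53.5% elsewhere. MCM7-210, annotated with a retained intron and lacking the first 570 bases of MCM7-201, took 65.2% and 69.1% there and 45.9 to 55.7% elsewhere. MCM2-206, which lacks 187 bases at the 5′ end and 607 at the 3′ end of MCM2-201, went the other way, with 0.381% and 0.134% there against a median of 4.56% and a range of 0 to 14.3% in the other 10. The main coding transcripts of MCM4 and RRM2 gained share. MCM4-223 took 91.6% and 87.5% there, against a median of 73.9% and a range of 63.9 to 91.0% in the other 10. RRM2-201 took 82.9% and 94.9%, against a median of 74.35% and a range of 63.65 to 88.1%. MCM3-205 and MCM6-201, the main transcripts of MCM3 and MCM6, took less there than their medians in the other 10. The part of the length trend of these 2 libraries in the shares was not tested.

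**Figure D5:**
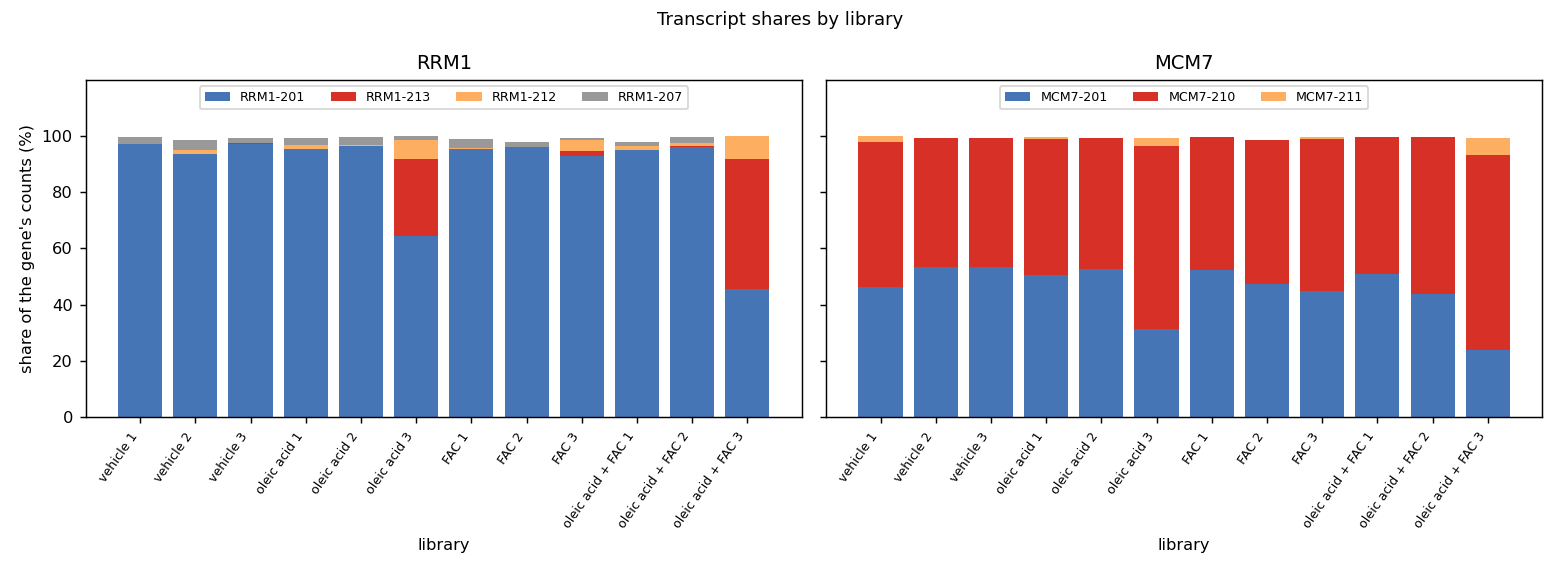
Share of the estimated counts of RRM1 (left) and MCM7 (right) on each main transcript, in percent, by library. RRM1-213 reaches 27.2% and 46.3% in replicate 3 of oleic acid and of oleic acid + FAC, and at most 1.76% in the other 10.

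CDT1 had a single main transcript, CDT1-201, with 94.7 to 100% of its counts in every library. Of 98 transcripts of the 10 genes in the transcript table, 51 passed the filter and 0 were called in each of the 8 comparisons by edgeR, where 0.299% of 51464 tested transcripts were called for FAC averaged over oleic acid. In the other comparisons the share of all transcripts called was 0.00777% for FAC against vehicle, 0.0117% for oleic acid with FAC against oleic acid, 0.0175% for oleic acid with FAC against vehicle, 0% for oleic acid against vehicle, and 0.00194% each for oleic acid with FAC against FAC, the interaction and oleic acid averaged over FAC. Transcripts of a gene share reads that the quantification divides by estimate, so these shares are uncertain. The counting is not stated to use strand, so reads from MCM7 (chr7:100092728-100101940, minus strand) and from AP4M1, which overlaps it by 392 bases on the opposite strand, cannot be told apart there. The same holds for RRM1 (chr11:4094707-4138876, plus strand) and its antisense gene RRM1-AS1 over 1142 bases, and for MCM2 (chr3:127598223-127622436, plus strand) with the antisense gene AC023593.1 over 2331 bases and TPRA1 over 45. CDT1 lies at chr16:88803213-88809258 on the plus strand and had no annotated overlap.

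The other genes of DNA replication were taken from 8 lists with 105 genes, all of which passed the filter. The lists were chosen with earlier results of these data known. Their shares beside those of all genes are therefore a description only. For FAC averaged over oleic acid 13 of the 105 (12.4%) passed the test, 5 higher and 8 lower, against 8.76% of all genes, and without the 2 libraries that stood apart 18 passed, 5 higher and 13 lower. Leaving out 1 library at a time gave between 6, without vehicle 3 or without oleic acid + FAC 2, and 16, without oleic acid 3. For FAC against vehicle 4 of 105 (3.81%) passed, against 1.19% of all genes: TICRR, E2F3 and E2F8 rose and DSCC1 fell. For oleic acid with FAC against oleic acid 5 of 105 (4.76%) passed, against 2.21% of all genes: E2F3, E2F8 and CDKN1B rose, and ORC5 and DSCC1 fell. For oleic acid with FAC against vehicle 4 of 105 (3.81%) passed, against 3.07% of all genes: E2F3 and CDKN1B rose, and ORC5 and DSCC1 fell. No list gene passed for oleic acid against vehicle, oleic acid with FAC against FAC, the interaction or oleic acid averaged over FAC. The alternatives for list genes were taken only for FAC averaged over oleic acid, so the stability of the calls between groups was not tested.

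For the genes that supply deoxynucleotides, 0 of 12 passed for FAC averaged over oleic acid, with a median log2 fold change of 0.02. RRM2B, the alternative small subunit of ribonucleotide reductase, had 0.01 (edgeR adjusted p = 0.950), and TYMS, thymidylate synthase, had 0.05 (edgeR adjusted p = 0.762). Among the 11 genes of origin recognition and MCM loading 1 fell and none rose. It was ORC5, a subunit of the origin recognition complex, at -0.44 (edgeR adjusted p = 0.00321). It had 44.9 ± 2.15 CPM in vehicle, 42.1 ± 3.15 in oleic acid, 33.3 ± 2.12 in FAC and 31.0 ± 1.80 in oleic acid with FAC (SD, n = 3). CDC6, the partner of CDT1 in loading, had 0.08 (edgeR adjusted p = 0.632). Geminin (GMNN), the inhibitor of CDT1, had 0.16 (edgeR adjusted p = 0.411).

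Of 12 genes of origin firing 1 rose and 1 fell. TICRR, which is needed to activate the loaded helicase, rose by 0.52 on the log2 scale for FAC averaged over oleic acid (edgeR adjusted p = 0.00382). It had 87.3 ± 9.96 CPM in vehicle, 88.7 ± 8.41 in oleic acid, 136 ± 9.94 in FAC and 117 ± 14.6 in oleic acid with FAC (SD, n = 3). GINS4, a subunit of the active helicase, changed by -0.30 (edgeR adjusted p = 0.0420). Of 29 replication fork genes 4 fell and none rose, with a median log2 fold change of -0.12. The largest fall was that of DSCC1, a subunit of an alternative PCNA clamp loader, at -0.75 (edgeR adjusted p = 0.00108). It had 32.4 ± 5.51 CPM in vehicle, 29.6 ± 2.78 in oleic acid, 18.5 ± 1.91 in FAC and 18.4 ± 2.27 in oleic acid with FAC (SD, n = 3). PRIM1, a primase subunit, POLE2, a DNA polymerase subunit, and TIPIN, a fork protection factor, changed by -0.41, -0.40 and -0.32.

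Of the 6 genes for CDT1 turnover 1 fell. CUL4A, a scaffold of the ubiquitin ligase that marks CDT1, changed by -0.27 (edgeR adjusted p = 0.0314), and DTL, the subunit of that ligase that recognises CDT1, had 0.01 (edgeR adjusted p = 0.972). In the E2F and RB list of 10 genes 2 rose and 1 fell. E2F8, a repressor of the family, rose by 0.64 (edgeR adjusted p = 0.00185), and E2F3, an activator, rose by 0.53 (edgeR adjusted p = 0.000775). RBL1, a pocket protein, changed by -0.41 (edgeR adjusted p = 0.0485). E2F1 had 0.03 (edgeR adjusted p = 0.888). Among 10 G1/S cyclins and inhibitors CCND2, a D-type cyclin, rose by 0.75 (edgeR adjusted p = 0.0284) and CDKN1B, an inhibitor of cyclin-dependent kinases, rose by 0.44 (edgeR adjusted p = 0.00208). None of the 15 G2/M genes was called by edgeR, and their median log2 fold change was 0.07. The alternatives for FAC averaged over oleic acid numbered 19. Of these, RBL1 passed in 7, GINS4 and POLE2 in 8, TIPIN in 9, CUL4A in 10, and PRIM1 and CCND2 in 11. ORC5, TICRR, DSCC1, E2F8, E2F3 and CDKN1B passed in all 19.

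The genes whose log2 levels varied most like the mean of the 10 members, each put on a common scale, over the 12 libraries, among 11404 genes above a mean log2 CPM of 2, were HK1 (Pearson r = 0.95), ITGA7 (0.94), APEH (0.93), ADAMTS16 (0.93) and GPLD1 (0.93). The 12 points share the treatments and the libraries. Over the 10 libraries without the pair that stood apart, the closest were GPRC5C (0.97), STS (0.95), MAGED2 (0.95), CRTAC1 (0.94) and MMP2 (0.94), and 0 of the first 5 genes were among them. Among the 15 pairs of MCM genes r over the 12 libraries had a median of 0.70 and a range of 0.38 to 0.92, and among the 9 pairs of CDT1 with another member it had a median of 0.18 and a range of -0.37 to 0.45. Without the pair of libraries that stood apart, the MCM pairs had a median of 0.78 and a range of 0.42 to 0.89, and the CDT1 pairs a median of 0.34 and a range of -0.50 to 0.62.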

How the data were processed

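RNA from 12 HEK293 libraries was sequenced after poly-A selection with TruSeq chemistry, per the labels' protocols, which give an integrity number of 10 for every sample. Tools named in the submitters' processing notes are kallisto 0.46.1, bcl2fastq 2.19 and sleuth 0.30.0, with build GRCh38.p12 (also given as hg38). The authors deposited kallisto's estimated counts, by gene symbol and by transcript, per the labels. The values were already whole numbers, with 36459 symbols (21909 with a count) and 188753 transcripts. The sleuth results were not used here. No replicates looked like 1 library deposited in duplicate: the chi-square per degree of freedom was 8.14 to 122 between replicates.

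All genes were fitted at once with edgeR 4.0.16 (R 4.3.3; TMM scaling, default filter on low counts, quasi-likelihood F test, two-sided, 1 mean per group), and p-values were adjusted by Benjamini-Hochberg over the 14209 genes or 51464 transcripts tested; under 0.05 is called. There were 8 contrasts: 5 between groups, the interaction, and FAC or oleic acid averaged over the other. CPM use TMM-scaled totals, and log2 CPM a prior count of 2. SE and 95% intervals come from the same fit. Members and lists were chosen with earlier results of these data known: all 10 members were to be named, with up to 4 called genes of each list by size of change, TFRC, and the 5 genes with the highest r to the mean of the members. RRM2B, TYMS, CDC6, GMNN, DTL and E2F1 were named for their roles, outside that rule and after their values were seen. Lengths and coordinates are from GENCODE 29, promoter windows from RefSeq (GRCh38.p14). Of 188753 transcripts, 89.93% matched GENCODE by ID, and 98.64% of tested genes had a length. Alternatives were RLE scaling, no filter, a replicate block, only the groups compared, a length trend removed (lowess, span 0.3), 2 libraries left out together, each library left out, limma-voom (limma 3.58.1) and DESeq2 1.42.0. The edgeR script was tested on simulated data.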

Additional observations from a re-analysis of the deposited data

How the results depend on the processing

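Over 1270 values of the 10 members under the alternatives, 1259 kept their side of the threshold, 4 gained a call, 7 lost one and 0 reversed as a called value. All 11 shifts were in CDT1. A further 156 uncalled values changed sign. The largest log2 size among these was 0.141 in the main fit and 0.151 after the change. The other 9 members were called in 0 of 1143 values (smallest adjusted p = 0.0793). CDT1 for FAC averaged over oleic acid ran from 0.32 to 0.45 and passed in 12 of 19 alternatives, losing the call only when 1 of 7 single libraries was left out. Without the 2 libraries that stood apart, with the block, with the length trend removed and in DESeq2 it passed (adjusted p = 0.0057, 0.0171, 0.00773 and 0.00195). The members called thus ranged from 0 to 1 on leaving out 1 library. For oleic acid with FAC against vehicle 1 member, CDT1, was called under each of these 4 alternatives, in place of 0 (adjusted p = 0.0438 with the block). Member transcripts gave 0 calls in all 8 comparisons with no filter and with the block.

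Counts over all genes moved more. FAC against vehicle, with 169, gave 431 with the replicate block, 445 with the length trend removed, 672 without the 2 libraries, 351 with only the groups compared, 505 in DESeq2 and 27 to 79 on leaving out 1 library. Oleic acid with FAC against oleic acid, with 314 (108 higher, 206 lower), gave 740 with the block, 808 (359 higher, 449 lower) with the trend removed, 19 with only the groups compared, 775 in DESeq2 and 55 to 449 on leaving out 1. Oleic acid with FAC against vehicle, with 436 (146 higher, 290 lower), gave 1528 with the block, 1073 (502 higher, 571 lower) with the trend removed, 704 without the 2 libraries, 162 with only the groups compared, 1248 (567 higher, 681 lower) in DESeq2 and 62 to 324. FAC averaged over oleic acid, with 1244 (465 higher, 779 lower), gave 2211 with the block, 2286 (1095 higher, 1191 lower) with the trend removed, 2143 without the 2 libraries and 738 to 1810. Oleic acid with FAC against FAC gave 1 in DESeq2 and 0 on leaving out 1, and oleic acid averaged over FAC gave 1 with the block and 3 in DESeq2, in place of 0. The cause was not tested.

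The labels give no pairing of the libraries, and the main fit used none. Of 18 same-number pairs, 13 had correlated deviations over 0.1 (r from -0.14 to 0.73). Of 12 libraries, 10 correlated best with their own number, a hint from the data and not the design. The number of libraries, 3 a group, limits the precision, and the 95% intervals give its size for each gene.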
